A study of Mus musculus with 18 samples.

Results

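Naive CD4+ T cells treated with PMA and calcium ionophore (PI) were compared, gene by gene, with naive CD4+ T cells that had met their peptide antigen (Ag). The comparison used 6 of the 18 libraries of the series, 3 of cells labelled Naive + PI (NPI) and 3 of cells labelled Naive + Antigen (NAg), and all 37991 Ensembl genes, of which 17240 were tested. The 3 libraries of untreated naive cells (N0) are given as the level at rest. All mice were of the Tg4-H2u strain, of both sexes and, by the methods of the study, 6 to 12 weeks old, and their CD4+ T cells mostly carry 1 transgenic TCR for a peptide of myelin basic protein. By the labels, control mice had received PBS vehicle on the schedule used for tolerization, which the methods state for N0. For NAg the 4Y form of the peptide was injected under the skin and splenic CD4+ T cells were enriched 2 h later, so that these cells were stimulated in the animal, next to Ag-presenting cells. For NPI, CD4+ T cells from the spleen were held in culture with PMA and the ionophore A23187 for 2 h, and for N0 the mice received a last dose of PBS 2 h before the cells were harvested. The agent therefore changed together with the place of stimulation, and culture without PI was not analysed here. NPI differs from N0 by the culture as well as by PI, and levels given as after PI cover both.

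Binding of a peptide and MHC complex to the TCR activates Lck and ZAP-70, which phosphorylate the adaptor LAT and recruit phospholipase C gamma. Its products, diacylglycerol and inositol trisphosphate, open the Ras-ERK and protein kinase C branches on one side and the calcium, calcineurin and NFAT branch on the other. PMA replaces diacylglycerol and the ionophore lets calcium in, so PI drives AP-1, NF-kB and NFAT with no need of the TCR, CD28, a costimulatory ligand or a cytokine from another cell.

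Total counts were 14895843 to 19878476 in NPI, 11937546 to 13559974 in NAg and 10758571 to 11204651 in N0. All values below are normalized counts, which are counts divided by the library's size after TMM scaling, and levels are compared between genes only per kilobase of exon. Mitochondrial genes took 2.14 to 2.58% of counts in NPI and 0.799 to 0.904% in NAg, and the 100 genes with most counts took 26.1 to 26.8% against 19.9 to 20.5%. The 3 NPI libraries had 5624 to 7873 counts of Y-linked genes and 4 to 7 of Xist, while those of NAg and N0 had 16 to 35 and at least 18647, so NPI came from males and NAg and N0 from females, and the treatment and the sex of the mice cannot be told apart within naive cells. Further fits over all 18 libraries took as covariates either the level of Y-linked genes or scores of erythroid and of myeloid markers, here called the marker scores, and the log2 fold change they give stands beside a named gene whose adjusted p they end. Only the untreated and the Ag-treated tolerized groups held libraries of both sexes, so the Y-linked covariate was set mainly by those groups. It cannot separate sex from treatment in naive cells. A lost adjusted p does not by itself say that the difference became smaller. CD4 T cell markers were present in all libraries, with a summed level over 10 markers of 64793 to 71599 in NPI, 29918 to 33285 in NAg and 51252 to 53585 in N0. Cd28 alone made up 24859 to 27684 of the sum in NPI, and without it, a sum added after the values were seen, the 9 others reached 39331 to 43915 in NPI, 28144 to 30948 in NAg and 47008 to 49296 in N0. Trac went the other way, from 11580.1, 10862 and 12499 in NAg to 6545, 6851 and 7177 in NPI. Fewer CD4+ T cells and less RNA of these genes per cell cannot be told apart in bulk samples.

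Genes were called when the adjusted p of edgeR's quasi-likelihood test was under 0.05, the groups differed 2-fold or more, and the group with the higher level averaged over 50 normalized counts. By this rule 2473 genes were higher in NPI, which is 14.3% of those tested, and 2265 were lower, which is 13.1%. Counts of list members below stand against these 2 shares. The 3 libraries of each group lay apart without overlap in 2470 of the higher and 2255 of the lower genes, against 35.8% and 32.7% of all tested genes that lay apart in each direction. The calling limits leave little room for overlap, so a lack of overlap adds little to a call. At an adjusted p under 0.05 alone, 33.5% of the tested genes were higher and 31% lower. Of the genes called, 204 were over 10-fold higher and 101 over 10-fold lower, and 62 and 58 were X-linked. The X-linked genes include Dkc1, P2ry10 and Tsc22d3, which are named below. Resting cells lay above both stimulated groups in 1043 of the genes higher in NPI and in 169 of the genes lower in NPI, and below both in 485 and 792. The median log2 fold change of all tested genes, NPI over NAg, was 0.08, and it was -0.09 when libraries were scaled by their totals in place of TMM.

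**Figure D1:**
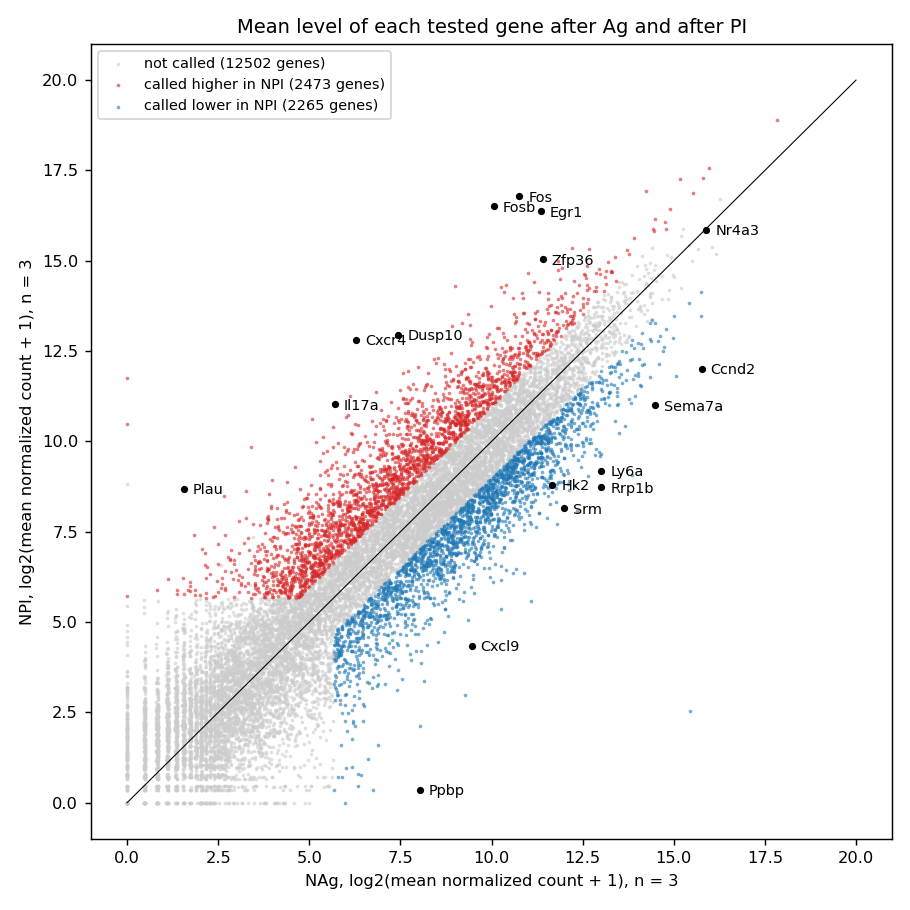
Each point is 1 of the 17240 tested genes, with log2 of the mean normalized count plus 1 over 3 NAg libraries on the x axis and over 3 NPI libraries on the y axis. The 2473 genes called higher in NPI (red) lie above the line of equality and the 2265 called lower (blue) below it. Fos, Fosb, Egr1, Cxcr4 and Dusp10 stand far above the line, Rrp1b, Srm, Cxcl9 and Ppbp far below it, and Nr4a3 lies on it. Points at the left edge and lower right include Y-linked genes and Xist.

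The immediate early transcription factors were much higher after PI. Among 14 tested AP-1 and related bZIP genes, 8 were higher and 2 lower in NPI, with a median log2 fold change of 1.48. Fos (chr12:86814840-86818223, plus strand of mm9), which pairs with Jun proteins to form AP-1, had normalized counts of 1251, 1283 and 2653 in NAg and 113307, 106893 and 118625 in NPI, and of 1853, 1022 and 1093 in N0. Its log2 fold change, NPI over NAg as in all fold changes here unless N0 is named, was 6.03 ± 0.32 (SE, edgeR adjusted p = 9.04e-10), and NAg was not distinguishable from rest (0.39 ± 0.27, adjusted p = 0.23). Fosb, a second Fos family member, went from 575, 531 and 2111 in NAg to 95868, 86554 and 96737 in NPI (6.44 ± 0.68, adjusted p = 1.86e-06). In both genes the lowest NPI library was more than 10-fold above the highest NAg library, which was replicate 3. Jun, which overlaps the annotated gene BC042782, read 2404, 1918 and 2107 in N0, 1134, 868 and 1697 in NAg and 21723, 17985 and 20147 in NPI (4.01 ± 0.21), so Ag left it below rest (-0.80 ± 0.19, adjusted p = 0.002).

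The other AP-1 genes did not all move with Fos. Maff, a small Maf protein, was 707, 718 and 632 in NAg and 6625, 6450.3 and 6564 in NPI, and Atf3, a stress-induced bZIP factor, was at 926, 761 and 699 in NAg and 3567, 4039 and 4032 in NPI. Fosl2 and Batf were the 2 members that were lower after PI. Fosl2 (Fra-2) had counts of 156, 179.6 and 178 in N0, 26179, 31276 and 26615 in NAg and 7736, 9606 and 8943 in NPI (-1.68 ± 0.09, adjusted p = 2.35e-14). Batf, which joins Jun and IRF4 at composite sites, had 199, 148 and 171 in N0, 2023, 2153 and 2185 in NAg and 416, 512 and 384 in NPI (-2.28 ± 0.20, adjusted p = 9.93e-08). Both rose above rest in either stimulus, and their NAg libraries all lay above their NPI libraries. Junb (1.72 ± 0.27) was higher in NPI with no overlap, but its adjusted p missed 0.05 with the marker scores as covariates (1.60 on the log2 scale).

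The EGR factors, zinc finger proteins downstream of ERK, were more often higher after PI, with 4 of 6 tested EGR and NAB genes higher in NPI and none lower. Egr1, which overlaps Gm17507, had counts of 588, 539 and 747 in N0, 2748, 2341 and 2755 in NAg and 79548, 84966 and 89883 in NPI, a log2 difference of 5.02 ± 0.13 (adjusted p = 1.35e-18). It was above rest after Ag as well (2.07 ± 0.12, adjusted p = 8.14e-13). Egr2 and Egr3, which restrain T cell activation, differed by 2.13 ± 0.19 and 3.04 ± 0.15. Egr3 was at 1037, 873 and 1027 in NAg and 7601, 7985 and 8581 in NPI. Per kilobase of exon, Egr1 reached 27354 normalized counts in NPI against 4906 for Egr2, and 843 against 1121 in NAg, so the order of these genes differed between the stimuli. The NR4A orphan receptors moved less. Nr4a1 (Nur77) had 598, 1041 and 1493 in N0, 58617, 62187 and 69904 in NAg and 193204, 190405 and 200192 in NPI (1.61 ± 0.24, adjusted p = 4.69e-05), although this call was lost with the marker scores (1.47 on the log2 scale). Nr4a2 differed by 1.04 ± 0.08, while Nr4a3 differed by -0.03 ± 0.14 (adjusted p = 0.84) with overlapping libraries.

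The list of MAP kinase phosphatases and Ras-ERK feedback genes had the largest share of members higher after PI among the 31 lists examined. Of 22 tested, 16 were higher and 2 lower, with a median log2 fold change of 1.41. This share, 72.7%, lay near those of naive identity (70%, 21 of 30) and of cytokines (68.2%, 15 of 22). Dusp8 (chr7:149265395-149281748, minus strand of mm9), a phosphatase for JNK and p38, had counts of 1.98, 0 and 0.992 in N0, 4.79, 4.70 and 6.60 in NAg and 279, 384 and 408 in NPI (6.02 ± 0.25, adjusted p = 1.89e-16). Dusp10 (chr1:185837181-185899515, plus strand of mm9), which acts on the same kinases, had 975, 2692 and 2092 in N0, 195, 176 and 148 in NAg and 8614, 6376 and 8815 in NPI (5.52 ± 0.35, adjusted p = 8.18e-09). Dusp10 was thus below rest after Ag (-3.47 ± 0.34, adjusted p = 6.40e-07) and above rest after PI (2.05 ± 0.29, adjusted p = 3.22e-05). Dusp1, a nuclear phosphatase of the same family, was 1589, 1589 and 2275 in NAg and 18706, 16089.5 and 17804 in NPI, and Dusp6, the cytoplasmic ERK phosphatase, differed by 3.85 ± 0.19. Dusp14 (3.77 ± 0.20), Spry4 (3.45 ± 0.23) and Phlda1 (2.84 ± 0.13) were also higher in NPI with no overlap. Spry1, an inhibitor of Ras-ERK signaling, was above rest after both stimuli and did not pass between them (-0.26 ± 0.27, adjusted p = 0.41). The 2 members lower after PI were Spred1, at 2002, 1776 and 1746 in NAg and 478, 644 and 547 in NPI, and Spred3 (-1.10 ± 0.28), which lost the adjusted p with either covariate (-1.02 with Y-linked genes and -1.44 with the marker scores) and was the member lost when NAg replicate 2 was left out, where 1 of the 2 remained.

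The promoters of Nfkbid and Dusp8, genes higher in NPI, are shown because each holds the cAMP and ATF response element TGACGTCA, a site for CREB and ATF family proteins, which was present in 3.12% of the windows of genes higher in NPI, 3.14% of those lower, 2.92% of those of all tested genes with a promoter in the table and 1.79% of all windows. The windows run from 250 bases before to 50 bases after a transcription start, in RefSeq for GRCm38.p6, and the capitals mark the match. Nfkbid is on the plus strand at chr7:30422156-30422455 and Dusp8 on the minus strand at chr7:142095235-142095534.
Nfkbid promoter: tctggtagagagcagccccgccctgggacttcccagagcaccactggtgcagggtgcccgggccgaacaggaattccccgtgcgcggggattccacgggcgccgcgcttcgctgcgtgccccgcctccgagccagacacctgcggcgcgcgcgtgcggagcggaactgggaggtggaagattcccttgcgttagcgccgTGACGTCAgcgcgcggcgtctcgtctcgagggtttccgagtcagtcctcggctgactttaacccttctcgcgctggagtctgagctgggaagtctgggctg
Dusp8 promoter: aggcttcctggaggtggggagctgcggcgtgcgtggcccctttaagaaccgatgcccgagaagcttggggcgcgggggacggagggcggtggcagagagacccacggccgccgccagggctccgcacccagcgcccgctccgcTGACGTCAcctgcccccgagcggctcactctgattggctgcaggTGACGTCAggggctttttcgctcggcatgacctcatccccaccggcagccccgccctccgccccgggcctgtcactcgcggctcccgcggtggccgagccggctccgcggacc
The 2 matches in Dusp8 end 99 and 55 bases before the start. Nfkbid has 3 windows in the table, of which 1 is shown. Of the 16 genes of the MAP kinase phosphatase and Ras-ERK feedback list higher in NPI, 11 had a promoter in the table. Among these, 3 held this element, Dusp1, Dusp8 and Errfi1, against 3.93% of all genes higher in NPI and 3.50% of tested genes. The match is a description of the letters and was not tested for binding.

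**Figure D2:**
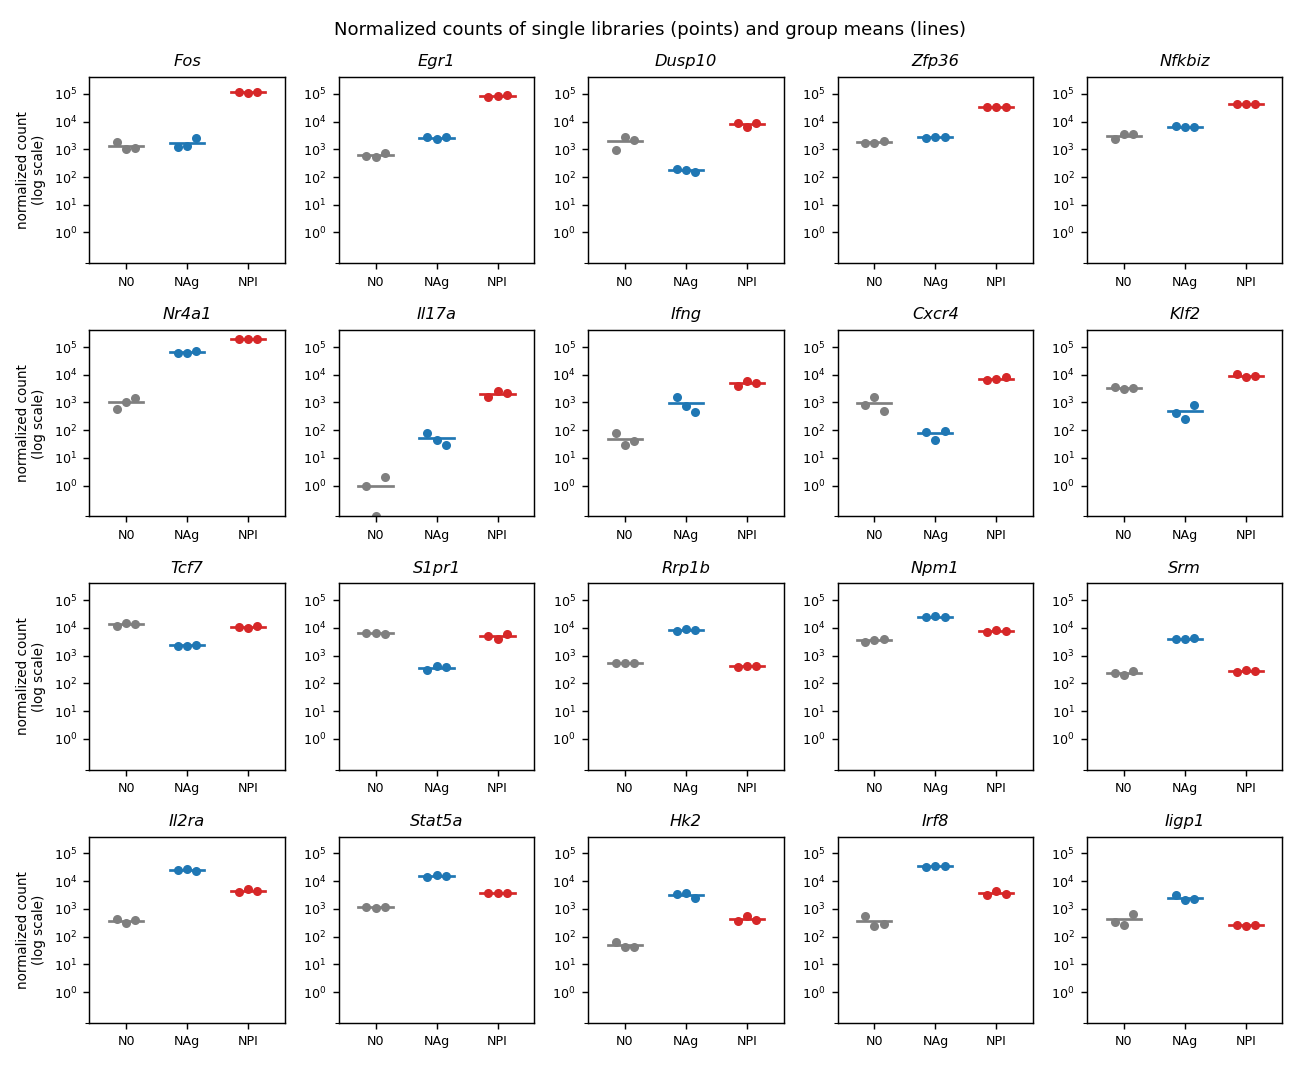
Normalized counts of 20 genes named in the text, on a log scale with 0 at its base, in N0, NAg and NPI, with 1 point for each library and a line at the mean of 3. Fos, Dusp10 and Cxcr4 are highest in NPI, Klf2, Tcf7 and S1pr1 are lowest in NAg, and Rrp1b, Srm and Irf8 are raised mainly in NAg.

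Several inhibitors of NF-kB were higher after PI while other regulators and the subunit gene Nfkb1 were lower. Of 17 tested genes of this pathway, 5 were higher and 4 lower in NPI, 29.4% and 23.5%, beside 14.3% and 13.1% of all tested genes. Tnfaip3 (A20), which removes ubiquitin chains from signaling complexes, was at 1967, 5314 and 3232 in N0, 19233, 18930.4 and 20226 in NAg and 133099, 114135 and 125275 in NPI (2.67 ± 0.27, adjusted p = 9.79e-07). Nfkbiz, a nuclear cofactor of the p50 subunit, was at 6776, 6573 and 6264 in NAg and 41329, 41257 and 41469 in NPI (2.66 ± 0.12). Nfkbid, of the same IkB family, was at 21972, 22233 and 24597 in NAg and 72066, 72969 and 74201 in NPI, and Nfkbia, which holds NF-kB in the cytoplasm, differed by 1.43 ± 0.11. Tnip1, an A20 partner, was at 1905, 1848 and 1849 in N0, 819, 808 and 760.0 in NAg and 3351, 2826 and 3014 in NPI, lower than rest after Ag and higher than rest after PI. Libraries of the 2 groups did not overlap in any of these 5 genes.

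Nfkb1, which encodes the precursor of p50, had 50964, 56319 and 56852 in NAg and 16982, 19624 and 17540.4 in NPI (-1.60 ± 0.09). Bcl3, which binds p50 and p52 in the nucleus, had 222, 232 and 330.2 in N0, 2099.8, 2386 and 1986 in NAg and 263, 310.1 and 294 in NPI (-2.90 ± 0.18, adjusted p = 8.51e-10), and its difference from rest after PI did not pass the test (0.14 ± 0.19, adjusted p = 0.53). Tnip3 was at 861, 732 and 494 in NAg and 58.3, 60.5 and 66.2 in NPI. The other subunits differed by less than 2-fold, Rel by 0.26 ± 0.08, Rela by 0.18 ± 0.07, Relb by -0.36 ± 0.08 and Nfkb2 by -0.75 ± 0.08. The NF-kB consensus, searched on both strands, was in the promoter of 10 of the 14 tested NF-kB pathway genes with a promoter in the table, among them all 4 of the higher and 2 of the 3 lower ones, and in 14.7% of genes higher in NPI, 11.0% of genes lower and 12.5% of tested genes. Tnfaip3 is shown as one of the higher genes that hold it, and in this window, on the minus strand at chr10:19015361-19015660, it occurs at 2 places, in capitals.
Tnfaip3 promoter: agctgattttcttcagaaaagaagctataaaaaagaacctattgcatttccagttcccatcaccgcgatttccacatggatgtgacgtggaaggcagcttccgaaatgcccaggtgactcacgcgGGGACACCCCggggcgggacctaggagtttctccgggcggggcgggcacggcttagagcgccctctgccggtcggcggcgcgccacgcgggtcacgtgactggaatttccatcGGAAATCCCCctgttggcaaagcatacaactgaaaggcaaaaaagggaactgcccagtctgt

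Regulators of mRNA decay moved in both directions, with 5 of 16 higher and 3 lower in NPI. These shares, 31.25% and 18.75%, stand beside 14.3% and 13.1% of all tested genes. Zfp36 (tristetraprolin), which binds AU-rich elements, had counts of 1739, 1640.0 and 2069.6 in N0, 2573, 2669 and 2866 in NAg and 34488, 32544 and 34454 in NPI (3.65 ± 0.10, adjusted p = 1.01e-19). Zc3h12a (regnase-1), an endonuclease for cytokine mRNAs, was at 1608, 1598 and 1358 in NAg and 4695, 4904 and 5186 in NPI, with no overlap. The decapping enzyme gene Dcp2 was lower in NPI (-1.64 ± 0.07). The CArG box, the site of serum response factor, was in 1.67% of windows of genes higher in NPI, 0.958% of those lower, 1.38% of those tested and 1.63% of all windows. It is shown in Zfp36, on the minus strand at chr7:28379179-28379478, 48 bases before the start, as a member of this list that holds it.
Zfp36 promoter: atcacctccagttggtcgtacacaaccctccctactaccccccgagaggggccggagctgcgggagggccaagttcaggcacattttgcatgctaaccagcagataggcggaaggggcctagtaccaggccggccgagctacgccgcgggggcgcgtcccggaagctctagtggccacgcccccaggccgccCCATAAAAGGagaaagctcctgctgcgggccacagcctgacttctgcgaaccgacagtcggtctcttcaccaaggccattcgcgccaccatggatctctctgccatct

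Cytokine genes were in most cases higher after PI: 15 of 22 tested were higher and 1 was lower, with a median log2 fold change of 2.36. Il17a, the lead cytokine of Th17 cells, had counts of 0.991, 0 and 1.98 in N0, 77.9, 44.6 and 29.7 in NAg and 1631, 2526 and 2120.4 in NPI (5.38 ± 0.46, adjusted p = 1.87e-07). Ifng, made by Th1 cells, had 77.3, 28.2 and 39.7 in N0, 1584, 749.5 and 462 in NAg and 3945, 6032 and 4871 in NPI (2.41 ± 0.40, adjusted p = 1.27e-04). For the Th2 cytokine Il4, which overlaps Kif3a, NAg libraries had only 3.60, 7.05 and 3.30 and NPI libraries 96.7, 165 and 161 (4.89 ± 0.45, adjusted p = 2.60e-09). These 3 genes of different helper lineages were higher in every NPI library than in every NAg library, and NAg replicate 1 held the highest NAg count of Il17a and Ifng.

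Il6 (3.79 ± 0.36), the macrophage growth factor Csf1 (3.18 ± 0.23), Il13 (2.97 ± 0.48), Areg (2.45 ± 0.43), Il17f (2.43 ± 0.43) and Il22 (1.45 ± 0.47) were further members higher in NPI. Lif, a cytokine of the IL-6 family, was at 7829, 5981 and 5045 in NAg and 17879, 20224 and 18025 in NPI (1.57 ± 0.18), against 14.9, 9.40 and 14.9 in N0. Il16, which overlaps Stard5 and is stored in resting T cells as a precursor protein, differed in kind: it had 5492, 5162 and 5118 in N0, 301, 261 and 295 in NAg and 2769, 2706 and 3204 in NPI, so it was below rest in both and lowest after Ag. Il3 was the 1 member lower in NPI (-2.99 ± 0.30), and Il2 did not pass the test (-0.07 ± 0.23, adjusted p = 0.82). With Y-linked genes as a covariate 10 of the 15 were called higher and Il3 was no longer lower (-0.01), and with the marker scores 13 of the 15 were counted. With the first the adjusted p was lost by Il13 (5.38), Csf2 (2.15), Il17f (1.93), Areg (1.09) and Il22 (0.79), and with the second by Il22 (2.02) and Il5 (0.07). Il13 with the first and Il22 with the second had larger log2 fold changes than without a covariate, and Il5 with the second was near 0.

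Chemokine genes moved in both directions. Of 18 tested, 7 were higher in NPI and 4 lower. The inflammatory chemokines Ccl3 and Ccl4 were at 252, 156 and 217 and 1399, 1148 and 1279 in NAg and at 3091, 5289 and 3507 and 3926, 6560.3 and 4592 in NPI, and differed by 4.25 ± 0.29 and 1.98 ± 0.21. Xcl1, which attracts cross-presenting dendritic cells, was at 234, 187 and 184 in NAg and 1711, 3217 and 2006 in NPI (3.52 ± 0.43, adjusted p = 8.18e-06). Cxcl9 and Cxcl11, interferon-gamma-induced ligands of CXCR3, were higher after Ag. Cxcl9 had 0.991, 4.18 and 2.97 in N0, 1006, 564 and 527 in NAg and 21.8, 20.9 and 15.3 in NPI (-5.18 ± 0.30, adjusted p = 1.17e-10), while Cxcl10, the third ligand, overlapped between groups (-0.47 ± 0.32, adjusted p = 0.23). Ccl22, a dendritic cell chemokine that also stands in the marker list of those cells, was at 239.7, 206 and 207 in NAg and 13.5, 20.9 and 14.4 in NPI (-3.74 ± 0.30). The 9 dendritic cell markers, Ccl22 among them, summed to 712 to 940 in NAg and 720 to 1004 in NPI, and their part in Ccl22 and Cxcl9 was not tested.

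Receptors raised on activated T cells were more often lower than higher in NPI, 8 against 4 of 21, with a median of -0.71. Il2ra (CD25), the alpha chain of the IL-2 receptor, had counts of 416, 299 and 406 in N0, 24242, 26689.9 and 23344 in NAg and 3946, 5089 and 4462 in NPI (-2.46 ± 0.22, adjusted p = 1.67e-07). Tfrc, the transferrin receptor, had 905, 899.9 and 867 in N0, 17762, 20915 and 23487 in NAg and 3253, 3747 and 3534 in NPI (-2.56 ± 0.14, adjusted p = 1.12e-11). Both were above rest after either stimulus, and each NAg library was above each NPI library. The TNF receptor family members Tnfrsf4 (OX40, -1.05 ± 0.15) and Tnfrsf9 (4-1BB, -1.70 ± 0.25) were lower in NPI too. With the marker scores 3 of the 8 were counted as lower, and the adjusted p was lost by Tnfrsf4 (-0.77), Tnfrsf8 (-0.71, from -2.12), Tnfrsf9 (-1.53), Cd24a (-0.68, from -1.11) and Plaur (-1.68, from -1.52). Of the 4 members higher in NPI, Cd69, which keeps activated T cells in lymphoid tissue, was at 21023, 20272 and 25440.5 in NAg and 57869, 61009.6 and 63319 in NPI, and Tnfrsf1a, the main receptor for TNF, at 661, 863 and 685 in N0, 225, 209 and 255 in NAg and 1602, 1724 and 1769.8 in NPI. Cd44, an adhesion receptor of activated cells, differed by 1.61 ± 0.11.

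Targets of cytokine signaling were more often lower than higher after PI, with 7 of 17 lower and 1 higher. Of the called members, Il2ra, Bcl3, Socs1 and Lif are also counted in other lists. Stat5a, a transducer of IL-2 signals whose annotation overlaps Stat3, had counts of 1203, 1113 and 1183 in N0, 14474, 17034 and 15713 in NAg and 3638, 3655 and 3623 in NPI (-2.11 ± 0.09, adjusted p = 9.38e-16). Cish, a STAT5 target that dampens cytokine receptors, was at 12465, 11397 and 8490.5 in NAg and 3755, 4489 and 3713 in NPI (-1.44 ± 0.15), and Socs1 differed by -1.06 ± 0.10. Among 24 cytokine receptor chains 7 were higher and 4 lower. Il12rb1 (-2.72 ± 0.17), Il15ra (-2.61 ± 0.13) and Il6st (-2.21 ± 0.08), receptor chains for IL-12, IL-15 and the IL-6 family, were lower in NPI. Ifngr2, the chain of the interferon-gamma receptor that limits its signaling in T cells, was at 611, 795 and 652 in N0, 217, 233 and 205 in NAg and 2603, 2866 and 2973 in NPI (3.69 ± 0.14, adjusted p = 1.14e-14). Ifnar1 had 2565, 2844 and 2715 in N0, 798, 822 and 689.6 in NAg and 2826, 2896 and 3225 in NPI. It was thus below rest after Ag and not after PI.

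Of 20 interferon regulatory factors and factors of T cell lineages 4 were higher and 3 lower, beside 14.3% and 13.1% of all tested genes. Irf8, an interferon regulatory factor, was the furthest apart, with 573, 232 and 279 in N0, 32270.0, 33966 and 35466 in NAg and 3257, 4249 and 3314 in NPI (-3.23 ± 0.26, adjusted p = 9.38e-08). Tbx21 (T-bet), the Th1 factor, was at 3806, 4080.0 and 3945 in NAg and 1108, 1533 and 1177 in NPI. Irf1 (1.84 ± 0.10), the Th2 factor Gata3 (1.36 ± 0.10) and the follicular helper factor Bcl6 (1.40 ± 0.14) were higher in NPI.

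**Figure D3:**
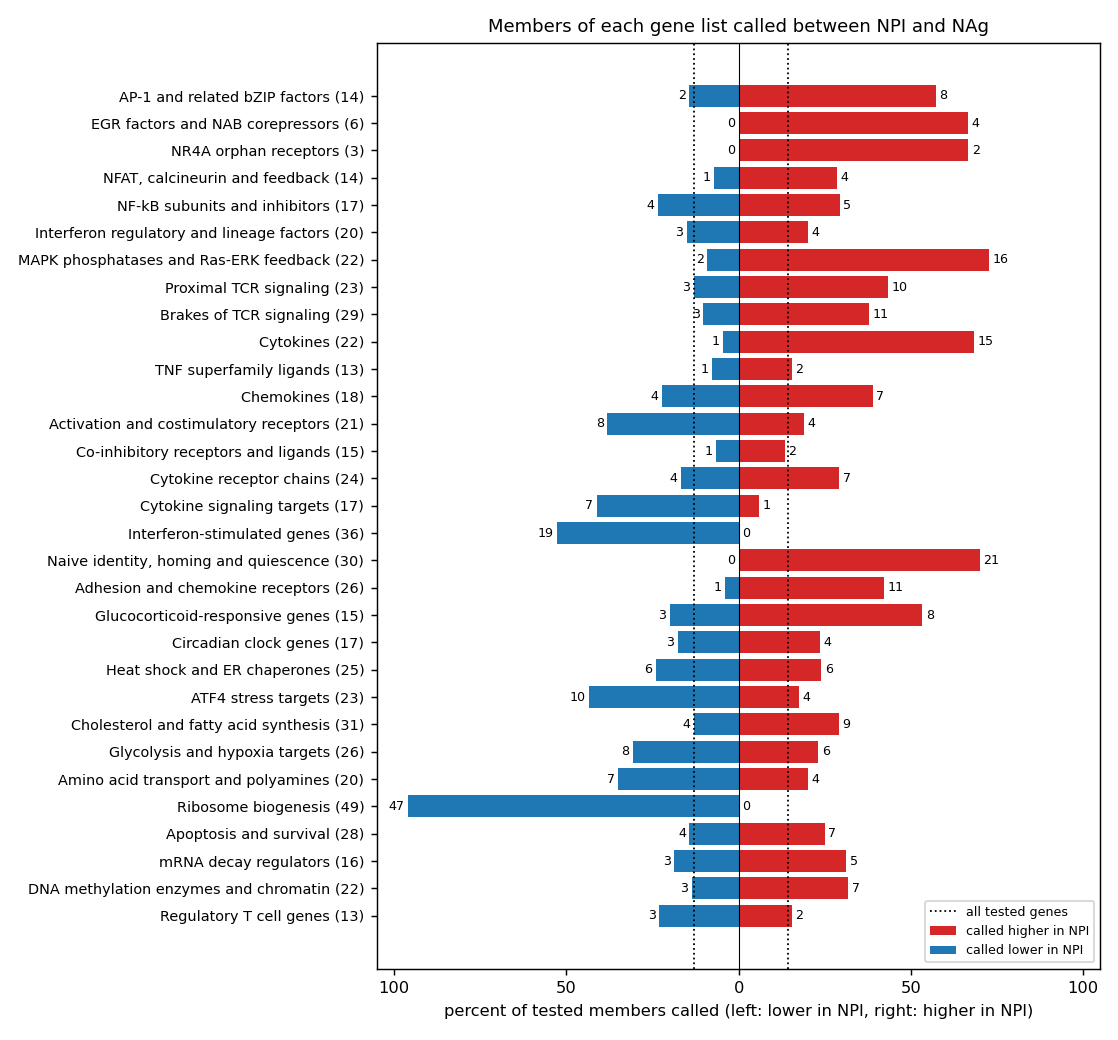
For each of 31 gene lists the bars give the percentage of tested members called higher in NPI (red, right) and lower in NPI (blue, left), with the numbers of genes at the ends and the number tested in brackets. Dotted lines mark 14.3% and 13.1% of all tested genes. Ribosome biogenesis has 47 of 49 members on the left and naive identity 21 of 30 on the right.

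Genes of the naive state were higher after PI than after Ag. Of 30 tested genes of naive identity, homing and quiescence 21 were higher in NPI, none was lower, and the median log2 fold change was 2.23. Relative to N0 the median was 0.13 in NPI and -1.84 in NAg, 2 values that share the N0 libraries. Klf2, the factor that keeps T cells quiescent and drives their exit from tissue, had counts of 3687, 2953 and 3378 in N0, 400.3, 248 and 808 in NAg and 10619, 8294 and 9077 in NPI (4.26 ± 0.34, adjusted p = 8.40e-08). Its target S1pr1, the receptor for the exit signal sphingosine-1-phosphate, had 6309.9, 6339.9 and 6261 in N0, 315, 408 and 378 in NAg and 5163, 3977 and 5955 in NPI (3.78 ± 0.13, adjusted p = 8.90e-16). Ccr7, which leads naive T cells into lymph nodes, had 3728, 4084 and 3741 in N0, 646, 692 and 606 in NAg and 10951, 11234 and 13132 in NPI (4.18 ± 0.11, adjusted p = 1.31e-18). In each of the 3 genes every NAg library lay below every library of N0 and NPI.

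Tcf7 and Lef1, HMG box factors of naive cells, were likewise lowest in NAg. Tcf7 had 11938, 14925 and 13672 in N0, 2299.9, 2298 and 2399 in NAg and 11192, 9822 and 11273 in NPI (2.21 ± 0.09), and Lef1 differed by 2.63 ± 0.09. Klf4 and the antiproliferative genes Tob1 and Btg2 rose above rest after PI, by 4.84 ± 0.20, 3.03 ± 0.12 and 3.07 ± 0.14, with counts of 102, 84.6 and 69.4 for Klf4 in N0, 56.3, 45.8 and 103 in NAg and 2086, 2489.5 and 2745 in NPI. Il7r, the survival receptor of naive cells, was lower than rest after both stimuli and was not called between them (0.24 ± 0.13, adjusted p = 0.11). With the marker scores Igfbp4 (1.03, from 1.23) and Ccr9 (3.44, from 3.01) lost the adjusted p, and so did Ccr9 with Y-linked genes as a covariate (1.03).

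Receptors that place T cells in tissue included one of the 10 genes furthest above NAg in NPI. Cxcr4 (chr1:130484776-130488870, minus strand of mm9), the receptor for CXCL12, had counts of 790.5, 1569 and 480.0 in N0, 88.7, 45.8 and 96.8 in NAg and 6598, 7043 and 7983 in NPI (6.54 ± 0.55, adjusted p = 1.74e-07). It was below rest after Ag (-3.61 ± 0.54) and above rest after PI (2.93 ± 0.43). Of 26 adhesion and chemokine receptor genes 11 were higher and 1 lower in NPI, the higher ones including S1pr4 (3.09 ± 0.19), P2ry10 (2.13 ± 0.12), the integrin chains Itgb7 (2.02 ± 0.12) and Itga4 (1.51 ± 0.17), and Ccr8 (1.97 ± 0.19). Icam1, an adhesion ligand that NF-kB induces, was the member that was lower, at 6381, 5736 and 5795 in NAg and 2215, 3221 and 2608 in NPI, and its call was lost with the marker scores (-0.76).

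In the proximal TCR apparatus 10 of 23 tested members were higher in NPI and 3 lower. Plcg1, phospholipase C gamma, had 6705, 6918 and 6537 in N0, 1921, 1873 and 1841 in NAg and 12588, 11225 and 12231 in NPI (2.68 ± 0.08). Cd28, the costimulatory receptor, had 4289, 4247 and 4244 in N0, 2083, 1774 and 2337 in NAg and 24859, 25462 and 27684 in NPI (3.65 ± 0.13, adjusted p = 2.84e-15), and so rose above rest after PI. Cd4 (1.23 ± 0.08), Cd3e (1.24 ± 0.09) and Cd3d (1.06 ± 0.08) were about 2-fold apart, and are also markers of the cells. Malt1 (-1.58 ± 0.10) and Vav1 (-1.06 ± 0.08) were among the 3 members lower in NPI.

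Brakes of TCR signaling were found on both sides, 11 of 29 higher and 3 lower. Dgka, the kinase that removes diacylglycerol and dampens Ras after TCR engagement, had counts of 17691, 18977 and 17034 in N0, 1344, 1171 and 1388 in NAg and 19639, 15287 and 18641 in NPI (3.78 ± 0.13, adjusted p = 2.95e-16). The G protein regulator Rgs2 stood above rest in NPI, with 700.3, 981 and 908 in N0, 1025, 773 and 1036 in NAg and 6448, 5662 and 6222 in NPI. Ubash3b (Sts-1, -2.06 ± 0.14), Socs1 and the ubiquitin ligase Cblb (-1.04 ± 0.10) were the 3 lower members, with Cblb at 3362, 2956 and 2792 in N0, 14653, 16615 and 13068 in NAg and 7272, 7205 and 7058 in NPI. Of 15 co-inhibitory receptors and ligands 2 were higher (Havcr2 and Cd96) and 1 lower (Pdcd1). These shares, 13.3% and 6.67%, stand beside 14.3% and 13.1% of all tested genes.

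Among the 31 lists the largest share of called members was in ribosome biogenesis, the making of ribosomal RNA and its assembly in the nucleolus, where all 49 tested genes were lower in NPI with no overlap between libraries and 47 were called. The median log2 fold change was -2.06, and relative to N0 it was 0.68 in NPI and 2.89 in NAg. Rrp1b, a nucleolar cofactor of rRNA processing, had counts of 538, 542 and 565 in N0, 7566, 8928 and 8321 in NAg and 403, 438 and 429.5 in NPI (-4.29 ± 0.08, adjusted p = 1.76e-21). Polr1b, the second subunit of RNA polymerase I, had 578, 589.8 and 539 in N0, 7807, 8317 and 8274 in NAg and 783, 826 and 818 in NPI (-3.33 ± 0.07, adjusted p = 1.76e-21). Dkc1 (dyskerin), which modifies rRNA, had 589, 612 and 573 in N0, 4677, 5265 and 5182 in NAg and 378, 486 and 439 in NPI (-3.54 ± 0.09). After PI, Rrp1b and Dkc1 lay below rest (-0.37 ± 0.08 and -0.45 ± 0.08) and Polr1b above it (0.51 ± 0.06), while every NAg library lay above all libraries of N0 and NPI.

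Abundant nucleolar proteins rose after PI as well as after Ag. Npm1 (nucleophosmin) had 3167, 3679.9 and 3849 in N0, 24069, 26274 and 25354 in NAg and 7365, 8094 and 7804 in NPI (-1.70 ± 0.08), and Ncl (nucleolin) had 3082, 4046 and 4068 in N0, 41106, 45489.9 and 43691 in NAg and 14650.0, 15078 and 14301 in NPI (-1.57 ± 0.09). Fbl and Ltv1 were lower by less than 2-fold (-0.88 ± 0.07 and -0.94 ± 0.07). Leaving out any 1 of the 6 libraries gave 47 called members each time, Y-linked genes as a covariate gave 46 and the marker scores 48. Myc, the E-box factor known to drive these genes, had 611, 612 and 734 in N0, 25485, 27576 and 26059 in NAg and 15112, 16956 and 14704 in NPI and was lower in NPI by under 2-fold (-0.76 ± 0.09). Of 42 tested ribosome biogenesis genes with a promoter in the RefSeq set, 11 held the Myc E-box CACGTG, 10 of them among the 41 lower ones. It was in the promoter of 16.1% of genes lower in NPI, 11.2% of those higher, 11.5% of those tested and 8.09% of all genes of the set. Counted by window, it was in 14.1% of those of genes lower in NPI and 8.70% of those higher, and with genes taken at an adjusted p under 0.05 alone in 11.4% and 9.01%. Utp20, of the small subunit processome, is shown as one of these, on the minus strand at chr10:88826765-88827064, with the E-box in capitals inside the last 50 bases, and it went from 10945, 12228 and 11763 in NAg to 1190.0, 1163 and 1239 in NPI (-3.28 ± 0.07).
Utp20 promoter: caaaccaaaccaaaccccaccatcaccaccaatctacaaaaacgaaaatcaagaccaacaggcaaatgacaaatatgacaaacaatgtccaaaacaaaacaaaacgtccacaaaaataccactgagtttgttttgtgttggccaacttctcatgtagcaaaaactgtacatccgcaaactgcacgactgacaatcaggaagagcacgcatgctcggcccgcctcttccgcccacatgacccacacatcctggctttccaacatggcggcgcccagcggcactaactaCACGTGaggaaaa

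**Figure D4:**
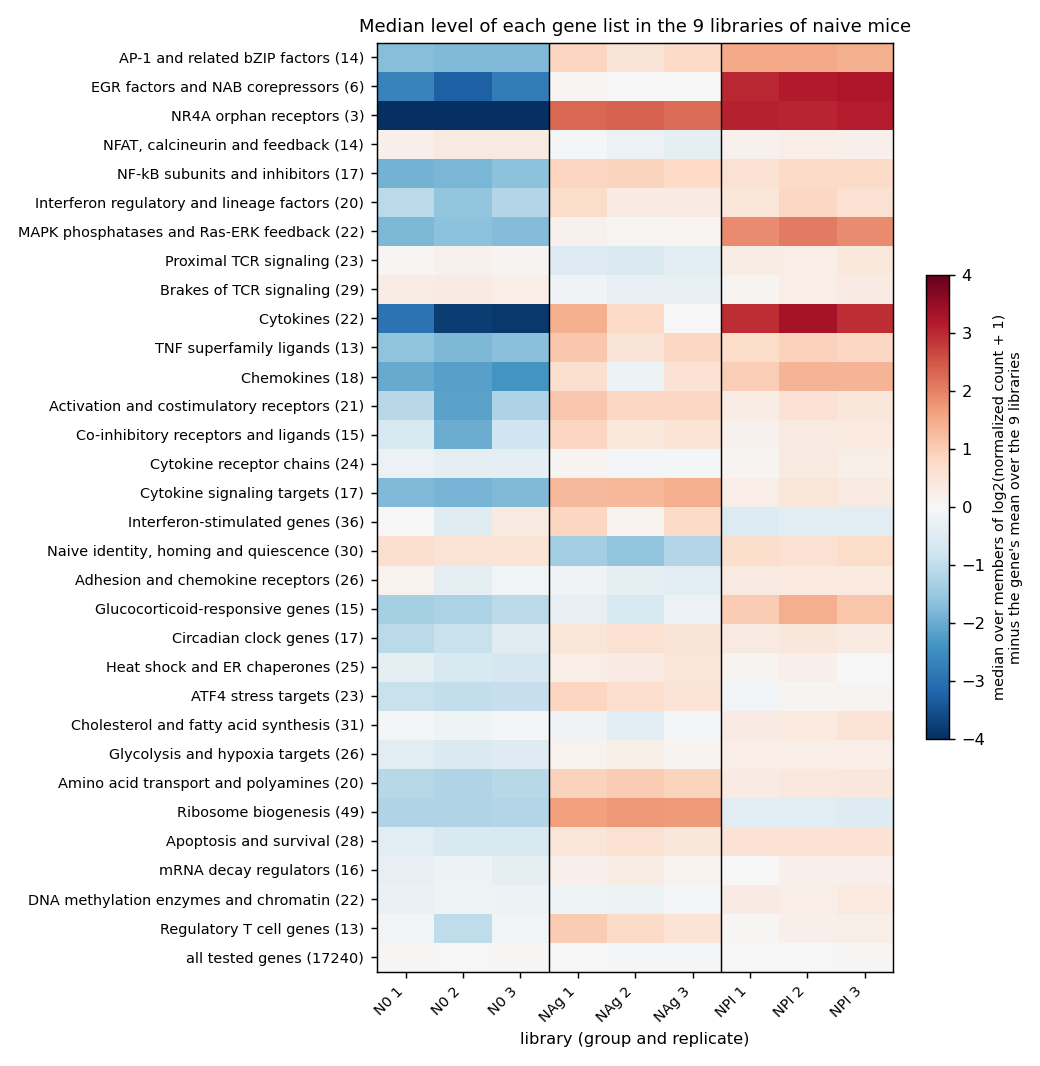
Rows are the 31 gene lists and all tested genes, columns the 9 libraries of naive mice, and colour gives the median over members of log2(normalized count + 1) minus the gene's mean over the 9 libraries, from blue (-4 and below) to red (4 and above). Ribosome biogenesis lies at 1.63 to 1.72 in NAg and -0.52 to -0.43 in NPI, and naive identity at -1.56 to -1.16 and 0.61 to 0.73.

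Genes of amino acid and one-carbon supply were more often higher after Ag. Of 20 amino acid transport and polyamine genes 7 were lower in NPI and 4 higher, and 10 of 23 ATF4 target genes were lower and 4 higher. Slc7a5 and Slc7a11 are counted in both lists. Srm, spermidine synthase, had counts of 234, 204 and 279 in N0, 3890.4, 4101 and 4162 in NAg and 260.0, 303 and 288 in NPI (-3.84 ± 0.10, adjusted p = 5.52e-20). Slc1a5, a glutamine transporter, had 2211, 1777 and 1791 in N0, 15551, 17249 and 18680.1 in NAg and 2887, 3076 and 3084 in NPI (-2.51 ± 0.10), and Shmt2, which makes one-carbon units in mitochondria, differed by -2.95 ± 0.10. In the ATF4 list the tRNA ligases Wars, Gars, Nars, Aars and Cars and the serine and one-carbon enzymes Psat1, Shmt2 and Mthfd2 were lower in NPI, as were the transporter Slc7a5 and the factor Atf5, whereas Ddit3 (2.47 ± 0.14), Sesn2 (2.36 ± 0.12), Trib3 (1.26 ± 0.24, and 1.39 with the marker scores, where it lost the adjusted p) and Slc7a11 (1.26 ± 0.18) were higher. Slc38a2, a transporter that starved cells induce, was at 4962, 4908 and 5723 in NAg and 16096, 18105 and 18859.5 in NPI.

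Glycolysis and lipid synthesis gave mixed counts. Of 26 glycolysis and hypoxia genes 8 were lower in NPI and 6 higher. Hk2, an inducible hexokinase, had 61.4, 40.7 and 40.7 in N0, 3416, 3752 and 2557 in NAg and 379, 554 and 397 in NPI (-2.87 ± 0.17, adjusted p = 6.10e-10), and Ldha, lactate dehydrogenase, differed by -2.00 ± 0.08. Vegfa, a hypoxia-induced growth factor, went the other way, from 30.0, 51.7 and 52.8 in NAg to 572, 522 and 515 in NPI. Of 31 cholesterol and fatty acid genes 9 were higher and 4 lower, the lower ones being Elovl6 -4.23 ± 0.14, Fasn -2.00 ± 0.07, Acaca -1.98 ± 0.08 and Hsd17b7 -1.83 ± 0.12. Abcg1, a cholesterol exporter, was at 1446, 1529 and 1332 in N0, 254, 241 and 246 in NAg and 1999, 1818 and 1948 in NPI (2.96 ± 0.08).

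Genes lower in NPI were also ranked by their level per kilobase of exon. Among the first 10, Ccnd2, the D-type cyclin of T cells (chr6:127075797-127101066, minus strand of mm9), had counts of 6763, 6452 and 6897 in N0, 52097, 56388 and 58543 in NAg and 3810.2, 4163 and 4415 in NPI (-3.75 ± 0.08, adjusted p = 8.09e-21), with NPI below rest (-0.70 ± 0.07, adjusted p = 1.11e-08). Sema7a, a membrane semaphorin of activated T cells, had 57.5, 19.8 and 28.8 in N0, 20761, 22791 and 25380.1 in NAg and 1821, 2536 and 1784 in NPI (-3.49 ± 0.19). Ly6a (Sca-1), an interferon-responsive surface protein, was at 9831, 6574 and 8329.9 in NAg and 525, 689 and 529 in NPI (-3.83 ± 0.22, adjusted p = 1.39e-09). Eif5a (-2.13 ± 0.08), Jak2 (-2.13 ± 0.09), Cd53 (-1.21 ± 0.07) and Pkm2 (-1.31 ± 0.09) stood in the same ranking with Npm1 and Nfkb1. This ranking took only genes whose NPI and NAg libraries did not overlap.

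Interferon-stimulated genes were lower in NPI in 19 of 36 cases and higher in none, with a median of -1.04, and relative to N0 the median was -0.49 in NPI and 0.71 in NAg. Iigp1, a GTPase that attacks vacuoles of pathogens, had 333, 259.9 and 649.5 in N0, 3258, 2149 and 2209.5 in NAg and 270.4, 235 and 272 in NPI (-3.29 ± 0.33, adjusted p = 1.19e-06). Gbp2, a guanylate binding protein, was at 3684, 2684 and 3343 in NAg and 535, 664 and 565 in NPI (-2.46 ± 0.15), and Parp14 differed by -2.42 ± 0.09. The NAg libraries were not alike in this list. Ifit1, a sensor of viral RNA, had 596, 308 and 659 in NAg and 82.2, 167 and 151 in NPI, with NAg replicate 2 the lowest of its group, and the same replicate was lowest for Ifit3, Mx1 and Ifi44. With the marker scores as covariates 3 members were counted as lower and 5 as higher, and Ifit3, Mx1, Oasl2, Ifi44 and Rtp4 changed sign and Ifit1 lost the adjusted p (-0.38, from -1.96), while Iigp1 (-2.54), Gbp2 (-1.89) and Parp14 (-2.13) did not. Without NAg replicate 1 the number lower was 13, and it was 16 to 20 without any other library. Of 18 macrophage and monocyte markers 7 were lower in NPI, with a summed level of 897 to 3283 in NAg, highest in replicate 1, of 603 to 862 in NPI and of 888 to 1334 in N0, and their part in the interferon list was not tested beyond that fit. The IRF motif GAAANNGAA was held by 15 of 24 members with a promoter in the table, 8 of the 12 lower members and 7 of the 12 others. It was in the promoter of 11.7% of genes lower in NPI, 7.61% of those higher and 8.83% of those tested.

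The 10 genes furthest below NAg in NPI were mostly genes of other blood cells. Ppbp, a platelet chemokine, had 50.5, 234 and 324 in N0, 423, 279.6 and 77.0 in NAg and 0, 0 and 0.849 in NPI, which is 1 read in all of NPI against 661 in NAg, a ratio of 777-fold, with a 95% counting interval of 139 to 30722. Tubb1, the platelet tubulin, also had 1 read in NPI (a ratio of 318-fold, with a 95% counting interval of 56.7 to 12623). Gng11 had none and was at least 62.3-fold lower, counted against a floor of 3 reads over the group. The macrophage genes C1qb, of the complement component C1q (86.9-fold, with a 95% counting interval of 23.6 to 725), Fcna (149-fold, with a 95% counting interval of 26.3 to 5939.7) and Slc40a1, the iron exporter (-6.07 ± 1.23), and the neutrophil gene S100a8 (72.5-fold, with a 95% counting interval of 24.4 to 355) stood in the same ranking, with P2ry13, Clu and Apol7c. C1qb had 126, 31.7 and 17.6 in NAg and Fcna 103, 35.2 and 12.1, with replicate 1 the highest for both and for Slc40a1 (198, 65.8 and 26.4), and without that replicate the log2 fold changes were -4.99, -5.72 and -5.01, against -6.22, -6.79 and -6.07. The intervals cover counting error only. Apol7c, at 777, 506 and 558 in NAg, 6.24, 11.0 and 3.40 in NPI and 48.5, 21.9 and 22.8 in N0, was above rest after Ag (4.29 ± 0.42, adjusted p = 3.04e-07). With the marker scores the adjusted p was lost by Ppbp (-7.15, from -9.17), Gng11, Clu (-3.86, from -6.12), Fcna (-3.25), C1qb (-1.68) and Slc40a1 (-1.60), and with Y-linked genes as a covariate by C1qb (-3.96). C1qb and Slc40a1 are themselves markers in the myeloid score, so their loss with the marker scores is partly built into that fit. The fitted value of Gng11, which had no read in NPI, depends on the prior count and went from -8.98 to -7.83.

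Marker lists gave the extent of this. The 6 platelet markers summed to 239 to 873 in NAg, 194 to 744 in N0 and 70.5 to 86.3 in NPI, and Gp9, Gp1ba and Gp6 had no read in NPI. The 12 erythroid markers summed to 184 to 532 in NAg, 118 to 316 in N0 and 34.8 to 92.6 in NPI. Of 13 neutrophil markers, which summed to 269 to 570 in NAg and 177 to 269 in NPI, Ngp, Ltf and Camp had no read in NPI, S100a8 and S100a9 were lower, and Mpo was higher (1.32 ± 0.53, adjusted p = 0.045). Mpo lost the adjusted p with either covariate (1.49 with Y-linked genes and 1.91 with the marker scores), and S100a9 with the marker scores (-3.88, from -5.83). Mpo and S100a9 are both markers in the myeloid score, so their loss with it is partly built in. B cell markers summed to 5310 to 9892 in NAg and 8957 to 18633 in NPI, with 1 of 16 called, Blk (2.84 ± 0.68), which lost the adjusted p with Y-linked genes as a covariate (1.59). The 8 NK cell markers summed to 1599 to 3413 in NAg and 1940 to 2948 in NPI, which overlap. Of these, 3 were lower in NPI, Ncr1, Klrb1c and Gzma. Klrk1 was higher by under 2-fold (0.94 ± 0.27, edgeR adjusted p = 0.0072), and Klrd1, Klre1, Nkg7 and Prf1 did not pass the test. With the marker scores Ncr1 (-0.77, from -1.70) and Klrb1c (-0.30, from -1.62) lost the adjusted p and Gzma changed sign. The part of these cells in single genes was not tested beyond the fit with marker scores, in which 83.3% of the higher and 87.0% of the lower calls were made again.

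**Figure D5:**
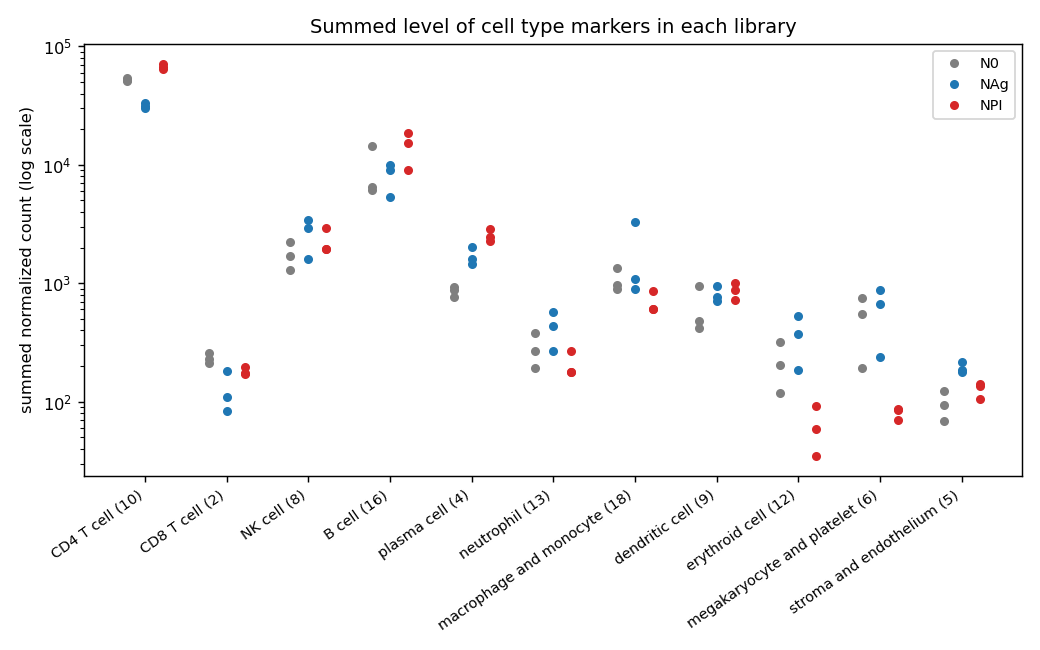
Summed normalized counts of the tested markers of 11 cell types, on a log axis, with 1 point for each of the 3 libraries of N0 (grey), NAg (blue) and NPI (red) and the number of markers in brackets. Platelet markers are at 70.5 to 86.3 in NPI and at 239 to 873 in NAg, while CD4 T cell markers are at 64793 to 71599 and 29918 to 33285.

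The genes furthest above NAg in NPI, apart from those given above, had few reads after Ag. Gprc5b, an orphan receptor that overlaps Iqck, had no read in NAg and 158 in NPI and was at least 44.8-fold higher. It had 117, 106 and 94.2 in N0 and 48.9, 51.7 and 54.3 in NPI, so NPI lay below rest (-1.03 ± 0.23, adjusted p = 5.28e-04) and NAg below both. Plau, the urokinase protease, was at 1.20, 3.52 and 1.10 in NAg and 287, 532 and 412 in NPI (7.64 ± 0.53, adjusted p = 3.32e-09), against 2.97, 2.09 and 1.98 in N0. Its receptor gene Plaur moved the opposite way, from 2281, 2795 and 1924 in NAg to 773, 832 and 828 in NPI (-1.52 ± 0.25, adjusted p = 1.20e-04), though its call was lost with the marker scores (-1.68). Enkur had 3 and 222 reads, a ratio of 63.0-fold, with a 95% counting interval of 21.3 to 308. Ccpg1, a cell cycle protein whose annotation overlaps Dyx1c1, was at 10.8, 10.6 and 4.40 in NAg, 367, 373 and 445 in NPI and 135, 144 and 145 in N0.

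Enzymes of DNA methylation and chromatin were higher in NPI in 7 of 22 cases and lower in 3. Tet1, which oxidizes methylcytosine, had 834, 1187 and 991 in N0, 25.2, 23.5 and 47.3 in NAg and 444, 406 and 483 in NPI (3.78 ± 0.19, adjusted p = 2.15e-13). Hdac5, a class II deacetylase, had 730.1, 767 and 766 in N0, 70.7, 49.3 and 78.1 in NAg and 1887, 1508 and 1739 in NPI (4.69 ± 0.13, adjusted p = 3.38e-19). Dnmt3a and Dnmt3b, the de novo methyltransferases, were the opposite, with 8713, 9947 and 9481 in NAg and 2485, 2274 and 2471 in NPI for Dnmt3a (-1.96 ± 0.07). Dnmt3a after PI was not distinguishable from rest (0.03 ± 0.07, adjusted p = 0.71).

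Stress and survival genes were divided as well. Of 25 heat shock and ER chaperone genes 6 were higher and 6 lower, 24% each, beside 14.3% and 13.1% of all tested genes. Dnajb4, a cytosolic cochaperone, was at 126, 72.8 and 137 in NAg and 2556, 2756 and 2676 in NPI (4.57 ± 0.16), whereas the mitochondrial chaperone Hspd1, which overlaps Hspe1, was at 6794, 7667 and 7724 in NAg and 824, 948 and 901 in NPI (-3.05 ± 0.11). Among 28 apoptosis and survival genes 7 were higher, including Gadd45a (3.37 ± 0.20), the p53 targets Bbc3 (PUMA, 2.66 ± 0.20) and Trp53inp1 (3.00 ± 0.13), and 4 were lower, Bid (-2.84 ± 0.11), Bax (-1.41 ± 0.11), Cflar (-1.27 ± 0.08) and the survival gene Bcl2l1, which was at 298, 359 and 319 in N0, 4828, 6763 and 5749.8 in NAg and 1991, 2164 and 1782 in NPI. Glucocorticoid-responsive genes had 8 of 15 higher and 3 lower, but 3 of the higher ones, Cxcr4, Dusp1 and Nfkbia, are described above, and Tsc22d3 (GILZ, 2.76 ± 0.47) lost the adjusted p with the marker scores (2.14), while Fkbp5 was lower (-1.51 ± 0.15). The circadian clock list (4 of 17 higher, 3 lower), TNF ligands (2 of 13 higher, 1 lower), NFAT and calcineurin genes (4 of 14 higher, 1 lower) and regulatory T cell genes (2 of 13 higher, 3 lower) stand beside the 14.3% and 13.1% of all tested genes. In the NFAT list Nfatc2 and Nfatc3, of the resting cell, were higher in NPI (2.12 ± 0.11 and 1.94 ± 0.11), and Nfatc1, the inducible member, was at 12227, 12978 and 13526 in NAg and 5839.6, 7429 and 7249.9 in NPI, under 2-fold lower.

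Several noncoding RNAs and the mitochondrial mRNAs were higher in NPI. Of the 10 genes ranked highest per kilobase among those higher in NPI, 6 were noncoding. The RNA 7SK, which restrains the elongation factor P-TEFb, was at 35452, 38231 and 37576 in NAg and 189273, 139884 and 142782 in NPI (2.08 ± 0.19, adjusted p = 1.54e-07). Malat1, a nuclear long RNA that overlaps Gm20417, was at 229167, 239195 and 228261 in NAg and 512101, 460856 and 480673 in NPI (1.06 ± 0.09), and RNase_MRP, Snora73b, SCARNA21 and Scarna10 were the other noncoding members, of which RNase_MRP (1.37, from 1.55), Snora73b (1.57, from 2.01) and Scarna10 (0.86, from 1.29) lost the adjusted p with the marker scores. Of 272 snoRNA genes 35 were higher and 36 lower, and of 279 miRNA genes 13 and 1. Over all tested genes 14.3% were higher and 13.1% lower. All 12 tested mitochondrial mRNAs, which were looked at after their values were seen, were higher in NPI, with log2 fold changes from 1.06 to 4.82. For mt-Co1, a subunit of cytochrome c oxidase, the counts were 47790.2, 48456 and 47829.9 in N0, 58582, 55132 and 56256 in NAg and 152154, 175976 and 154736 in NPI. Protein-coding genes higher in NPI had a median exon length of 4054 bases and those lower one of 3461 bases, against 3567 bases for all tested.

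Other motifs were counted in the same windows. On both strands, the AP-1 site TGANTCA was in 4.96% of windows of genes higher in NPI, 4.84% of those lower and 5.46% of those tested. The NFAT core TGGAAA was in 16.1%, 17.6% and 17.2%, the EGR site GCGNGGGCG in 12.0%, 8.83% and 9.71%, the NR4A site AAAGGTCA in 0.878%, 1.28% and 1.01%, and the glucocorticoid response element form ACANNNTGT in 4.61%, 4.15% and 4.57%. The windows were those of 1681 higher, 1543 lower and 10163 tested genes that matched the promoter table, many with more than 1 start, and the median GC content was 61.3%, 60% and 60% in the 3 sets.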

How the data were processed

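RNA-seq of CD4+ T cells from Tg4 mice was analyzed in all 18 libraries, 3 in each of 6 groups. The deposited values were raw read counts for each Ensembl gene, which the authors obtained from paired-end, rRNA-depleted libraries with TopHat2 2.1.1 on mm9 and HTSeq 0.9.1, without normalization. How overlapping genes and strand were handled is not given in the sources used here, so the counts of overlapping genes are uncertain, and 599 of the higher and 638 of the lower genes overlap another gene. Overlapping genes named in the text, beside those marked there, include Acaca, Bid, Cish, Cxcl10, Cxcl11, Ddit3, Dgka, Dkc1, Dnmt3a, Gadd45a, Gata3, Icam1, Irf1, Itga4, Nfatc3, Nfkb2, Plcg1, Shmt2, Snora73b, Fcna and Mpo. Dusp8 overlaps another annotated gene of the same name on the same strand. A few members of the lists and rankings are not reported here by name. The replicates of a group differed by more than sampling noise. Replicates are separate samples of each group. The p-values set the difference between groups against the spread between replicates. That spread was estimated over all 18 libraries, the tolerized groups included, and partly shared between genes.

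Counts were tested with edgeR 4.0.16 in R 4.3.3 (TMM, 6 group means, robust quasi-likelihood F test, Benjamini-Hochberg adjustment over 17240 genes whose normalized count averaged 3 or more in 1 or more groups). Fold changes are log2, NPI over NAg, with SE, which was computed from the F statistic. With simulated counts for 17329 genes, 95 of 100 genes changed 2.5-fold and 100 of 100 changed 4-fold were called, with 1 false call. The simulation gave every gene the same fixed dispersion and changed only genes averaging over 100 normalized counts. Its rates therefore do not carry over to scarcer or more variable genes. Ratios for groups with 1 to 3 reads carry an exact 95% interval for counting error only. Members and gene lists were chosen with earlier results of these data known, and counts of list members are descriptions. Some genes stand in more than 1 list, so counts of different lists are not separate results. Genes were named as follows: the 10 largest rises and falls among autosomal genes called without overlap, leaving out predicted genes and antigen receptor segments; the 10 most abundant per kilobase of exon in each direction; called members of the lists, up to 6 in each direction; genes the study names beside its RNA-seq data; and cell type markers. The ranking per kilobase took the same limits, so its genes also lie apart without overlap by selection. Other list members named, mitochondrial genes and, except for Nfkbid, the printed promoters were chosen after their values were seen. Gene positions are from an NCBIM37 annotation and promoters from RefSeq, in 1-based coordinates. Alternatives were DESeq2 1.42.0, its size factors, the combination of both tests, library totals (added after seeing the data), no filter on low counts, no minimum average count, 6 or 9 libraries, a replicate block, Y-linked genes or marker scores as covariates, and each library left out.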

Additional observations from a re-analysis of the deposited data

How the results depend on the processing

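The number of genes higher in NPI ranged from 2036 with library totals to 3669 without the minimum average count, and the number lower from 2200 with Y-linked genes as a covariate to 3166 without the minimum average count. Leaving out 1 library gave 2429 to 2536 higher and 2238 to 2343 lower. DESeq2 gave 2420 and 2327, library totals 2036 and 2682, the 6 libraries alone 2291 and 2400, and the marker scores 2361 and 2355. Equal replicate numbers did not pair the libraries (correlations of deviations of -0.18, -0.14 and 0.02), and the fit with the replicate block gave 2477 higher and 2261 lower, with 1 of 394 named genes losing its adjusted p.

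Of the 394 named genes, 11 changed direction, all with the marker scores as covariates, where their log2 fold changes were 0.78 for Ifit3, 0.77 for Mx1, 0.35 for Oasl2, 0.13 for Ifi44, 0.20 for Rtp4, 0.087 for Gzma, 0.83 for Csf1r, 1.57 for Emr1, 0.22 for Vcam1, 0.93 for Hmox1 and 0.63 for Mrc1. Csf1r, Emr1, Vcam1, Hmox1 and Mrc1 are themselves markers in the myeloid score, so their change of direction is partly built into that fit. The adjusted p was lost in 60 genes with the marker scores, 22 with Y-linked genes, 6 with the 6 libraries alone and 3 to 6 with 1 library left out. Counts of list members moved by over 1.5 times in 12 cases with the marker scores and 5 with Y-linked genes, among them NR4A genes higher (1 with the marker scores and 1 without NAg replicate 3), TNF ligands lower (0 with the marker scores, 2 with Y-linked genes and 2 without NAg replicate 3) and clock genes lower (7 with the marker scores). The cause was not tested. Depth limits the folds of genes with few reads in 1 group.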
